A study of Mus musculus with 23 samples.

Results

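The Bcl2 family decides whether a cell under stress keeps its mitochondria intact or starts apoptosis. It was read here through 10 of its genes in mouse embryonic stem (ES) cells that lost and regained Argonaute, the protein that carries microRNAs to their target RNAs. The 10 genes were chosen by symbol, and all 10 were found in each of the 6 deposited tables of 18412 genes. They were the anti-apoptotic Bcl2, Bcl2l1 and Mcl1, the effectors Bax and Bak1, and the BH3-only genes Bcl2l11, Bad, Bid, Bbc3 and Pmaip1.

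As background, Bax and Bak1 open pores in the outer mitochondrial membrane, which lets cytochrome c out and starts the caspases. The anti-apoptotic proteins hold the effectors and their activators in check, and BH3-only proteins either occupy the anti-apoptotic ones or activate the effectors directly. ES cells are known to sit close to the apoptotic threshold, and Bcl2l11 (the gene of Bim) is a known target of the miR-17-92 cluster in mouse lymphocytes.

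Polyadenylated RNA was sequenced in 23 samples, which formed 11 groups in 3 experiments. The ES cells grew on gelatinized plates in medium with serum and leukemia inhibitory factor. The genotype experiment held the Argonaute-null clones C62 and C86 (Blm-/-;Ago1,2,3,4-/-;CreERT2; 1 library per clone), the line E7 (Blm-/-;Ago1,2,3,4-/-;CreERT2;hAgo2fl; n = 3), the line B9 (Blm-/-;Ago1,3,4-/-; n = 2) and AB2.2, whose label gives no deletion and which is taken as wild type (n = 2). Time course and rescue were both made with TT-FHAgo2 cells. These are Blm-/- and Ago1,2,3,4-/- with CreERT2, and doxycycline induces their Ago2 transgene, TT-FHAgo2. In the time course the cells had 2.5 µg/mL doxycycline for 48 h, the dose that per the labels' protocols brings Ago2 to its wild-type level, and were then collected after 0, 24, 48 or 96 h without it (n = 2 each). In the rescue, cells kept at 0.1 µg/mL spent 96 h without doxycycline (n = 2), and were then given 0.1 or 2.5 µg/mL back for 48 h (n = 2 each). Blm was deleted in every mutant line, so its loss and that of Argonaute cannot be told apart in a comparison with AB2.2. The dosed groups of the rescue were 48 h longer in culture than the group without doxycycline, and later times were likewise longer in culture, so time, doxycycline itself and Ago2 cannot be told apart. The labels do not say which clonal line gave each TT-FHAgo2 library, nor what drives E7's human Ago2.

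Libraries held 13.5 to 53.7 M exon reads among genotypes, 32.9 to 62.4 M among times and 24.7 to 53.8 M among rescue doses, and 1.47 to 8.38 M intron reads. The median standard error (SE) of a log2 change in exon reads was 0.336 to 0.368, 0.0797 and 0.0910 in the 3 experiments, and the Argonaute-null clone libraries stood furthest apart, by a median of 0.570 on the log2 scale. Ago1 had 0 exon reads in every mutant group and 4104 ± 834 in AB2.2 (SD, n = 2), whereas gene-wide Ago2 reads, 5819 ± 876 in the clones against 6227 ± 1452 in AB2.2, do not show the Ago2 deletion. In the time course gene-wide Ago2 reads fell by little, at 11963 ± 288, 11420 ± 117, 11283 ± 378 and 10794 ± 32.6 after 0, 24, 48 and 96 h without doxycycline. In the rescue they did not follow the dose, at 7280.0 ± 28.5, 7724 ± 73.6 and 5689 ± 572 with none, 0.1 and 2.5 µg/mL. Gene-wide Ago3 reads fell in the time course, at 4533 ± 180, 2655 ± 155, 2316 ± 0.628 and 2181 ± 89.8 after 0, 24, 48 and 96 h. In the rescue Ago3 had 1939 ± 33.3, 2416 ± 50.7 and 2314 ± 0.985 with none, 0.1 and 2.5 µg/mL. All 10 ES cell markers were read in every group, with a summed level of 200972 to 593444, while the fibroblast marker Col3a1 was listed at 0 in all TT-FHAgo2 groups and the myeloid marker Lyz2 likewise. The 5 haematopoietic markers that include Lyz2 still had a summed level of 3874, 2594, 2856 and 3672 at 0, 24, 48 and 96 h. In the rescue their sum was 2477, 2462 and 3020 at no, low and high doxycycline. In each of these groups 3 of the 5 were below 10. The summed level of the 10 fibroblast markers was 48035, 58573, 73008 and 67232 at 0, 24, 48 and 96 h, and 40019, 32944 and 30532 at no, low and high doxycycline in the rescue, with 2 to 4 of the 10 at 0. It moved with the time and the dose, and its part in the results below was not tested. In whole cultures, fewer cells of a type and less RNA per cell cannot be told apart.

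Values below are normalised reads of a gene's exons in single libraries, numbered by depth within a group, which were worked out from the deposited group means. A gene was called where limma gave a Benjamini-Hochberg adjusted p below 0.05 over all genes tested in that comparison.

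Levels of different genes were set side by side only per kilobase of exon. At 0 h without doxycycline, Mcl1 was highest, at 10012 ± 136 normalised reads per kb (SD, n = 2). Bax followed at 5792 ± 72.6 per kb and Bak1 at 2889.6 ± 242. Bid had 1914 ± 34.2 per kb and Bcl2l1 1536 ± 29.0, above Bbc3 at 728 ± 33.7. Bcl2l11 stood at 345 ± 11.9 per kb, close to Bad at 329 ± 4.56 and Pmaip1 at 325 ± 2.71, of which the libraries of the last pair overlapped. Bcl2, the gene that names the family, came last at 8.96 ± 2.07 per kb, and it was the lowest of the 10 in all 11 groups. Mcl1 led in every group but the Argonaute-null clones, where Bax at 4695 ± 1957 and Mcl1 at 3841 ± 2345 per kb overlapped. At 48 h without doxycycline Bcl2l11 had 578 ± 21.4 per kb and Bid 1255 ± 24.4, each at the same place in the order as at 0 h. Only Pmaip1 and Bad had changed places, at 387 ± 17.7 and 239 ± 17.3 per kb, and their libraries no longer overlapped.

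The time course follows the cells as their induced Ago2 is withdrawn. Bcl2l11, the gene of the apoptosis activator Bim, rose within 24 h and stayed higher through 96 h, and Bid, whose protein is cut by caspase-8 to engage Bax and Bak1, fell over the same times. Bcl2l1, the anti-apoptotic Bcl-xL gene, fell while Bbc3, the gene of the p53 target Puma, rose. Of the 10 genes, 6 were called at 24 h against 0 h (3 higher, 3 lower), where 50.7% of all tested genes were called (26.5% higher, 24.1% lower). At 48 h against 0 h, 8 were called (3 higher, 5 lower; 63.3% of all tested genes, 32.1% higher and 31.2% lower), and at 96 h against 0 h, 7 were called (5 higher, 2 lower; 65.0%, 32.4% higher and 32.5% lower). These counts are near the share of all genes, so the results lie in the direction and size for each gene. The median absolute log2 change of the 10 genes was 0.28, 0.44 and 0.21 at 24, 48 and 96 h, beside 0.24, 0.34 and 0.36 over all tested genes. These comparisons share the 0 h libraries.

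Bcl2l11 (ENSMUSG00000027381, chromosome 2, 128126038 to 128162547, plus strand, GRCm38) had 2525 and 2405 normalised reads at 0 h, then 3828 and 3865 at 24 h, then 4018 and 4235 at 48 h and lastly 3795 and 3794 at 96 h. Every library without doxycycline lay above both 0 h libraries, and the difference was there at the first time sampled. The log2 change was 0.64 (SE 0.05, adjusted p = 6.96e-10) at 24 h, 0.74 (SE 0.05, adjusted p = 1.82e-11) at 48 h and 0.62 (SE 0.05, adjusted p = 2.97e-10) at 96 h. The 48 h change was a 1.67-fold rise. Neither the step to 48 h from 24 h nor that to 96 h from 48 h was called.

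Since Bcl2l11 moved most, its matches to microRNA seeds are shown. The microRNAs below were chosen because they are known to be abundant in mouse ES cells (the miR-290 family and the miR-17-92 cluster) or to target Bcl2 in other cells (miR-16); their own levels were not measured here. Mature sequences are from RefSeq (GRCm38.p6), with the seed, bases 2 to 8, in capitals. The seeds of miR-291a and miR-17 are the same letters shifted by 1 base, while the other 3 are unlike them.
mmu-miR-291a-3p: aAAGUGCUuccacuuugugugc
mmu-miR-17-5p: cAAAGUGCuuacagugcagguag
mmu-miR-92a-3p: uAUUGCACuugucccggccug
mmu-miR-19b-3p: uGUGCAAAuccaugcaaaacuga
mmu-miR-16-5p: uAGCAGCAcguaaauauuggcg

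The longest Bcl2l11 3′ untranslated region in the GENCODE M21 annotation, 4218 bases, holds matches to the seeds of 4 of these 5 microRNAs. Searched on the transcript strand only, it had 3 matches to the miR-291a seed (AGCACTT), of which the later 2 overlap the 2 matches to the miR-17 seed (GCACTTT) by all but 1 base. It also had 2 matches to the miR-92a seed (GTGCAAT), 1 to the miR-19b seed (TTTGCAC) and none to the miR-16 seed (TGCTGCT). Among 1277 untranslated regions of tested genes whose length was within a factor of 0.8 of it in either direction, 40.5% held at least 1 miR-291a match, 31.9% a miR-17 match, 18.2% a miR-92a match, 28.8% a miR-19b match and 54.3% a miR-16 match. The matches are shown with 10 bases on each side, the match in capitals, and named by the microRNA and the position of the first matched base in the untranslated region.
miR-291a match at 1251: tgccgagtaaAGCACTTgtcttccaca
miR-291a match at 1448: ctggtggaggAGCACTTtctaacctgt
miR-291a match at 2122: ccccgactggAGCACTTtactgtctca
miR-92a match at 2845: aaatgtctctGTGCAATtgtgttccct
miR-92a match at 4120: cactgtacctGTGCAATactgctgtaa
miR-19b match at 4078: tcctttacgtTTTGCACtgatgaattt

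Other members hold such matches too. Bid, which fell, has 1 miR-17 match in a 1670-base region, ggagaaagagGCACTTTtagtctcaag at position 1306, as do 14.9% of 2394 regions of like length. Mcl1 has 1 match each to miR-291a, miR-17 and miR-92a. Bcl2 has 2 matches to miR-291a and 1 each to miR-17 and miR-16, and Bak1 and Bad have 1 to miR-92a. Bcl2l1, Bax, Bbc3 and Pmaip1 have no match to the 5 seeds. A match is only a run of letters and no measurement of binding.

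Bid (ENSMUSG00000004446, chromosome 6, 120891930 to 120916853, minus strand) had 3574 and 3665 normalised reads at 0 h, then 2586 and 2656 at 24 h, then 2406 and 2341 at 48 h and lastly 2583 and 2486 at 96 h. All libraries from 24 h on lay below both 0 h libraries. Its log2 change was -0.47 (SE 0.05, adjusted p = 2.26e-07) at 24 h, -0.61 (SE 0.05, adjusted p = 1.27e-09) at 48 h and -0.51 (SE 0.05, adjusted p = 1.72e-08) at 96 h. At 48 h this was a 1.53-fold fall. Bid overlaps Bcl2l13 by 913 bases and the pseudogene Gm17812 by 318 bases, both on the other strand. Whether strand was used in counting is not given in the sources used here, so reads of these overlaps cannot be told apart. Bid also shares 2094 bases with Gm44260 on the same strand, and reads of this stretch could belong to either.

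Bbc3 codes for Puma, a BH3-only protein that p53 induces. It had 1392 and 1486 normalised reads at 0 h, then 1932 and 1949 at 24 h, then 2100.2 and 2209 at 48 h and lastly 1943 and 1706 at 96 h, so that all later libraries lay above the 0 h ones and the 48 h libraries were highest. The log2 change was 0.43 (SE 0.07, adjusted p = 1.65e-05) at 24 h, 0.58 (SE 0.07, adjusted p = 1.15e-07) at 48 h and 0.34 (SE 0.07, adjusted p = 0.000155) at 96 h. Pmaip1, whose product Noxa binds Mcl1 and marks it for degradation, had 867 and 857 normalised reads at 0 h, then 1112 and 917 at 24 h, then 1060 and 993 at 48 h and lastly 1204 and 1303 at 96 h. Its groups did not overlap with 0 h at any time, and it was highest at 96 h, with a log2 change of 0.54 (SE 0.09, adjusted p = 1.18e-05). The smaller Pmaip1 changes of 0.23 at 24 h (SE 0.09, adjusted p = 0.0355) and 0.25 at 48 h (SE 0.09, adjusted p = 0.0172) depended on single libraries. Leaving out library 1 of 24 h ended the 24 h call (adjusted p = 0.480), as did leaving out library 1 (0.0889) or 2 (0.117) of 0 h. For the 48 h call this held for library 1 of 48 h (adjusted p = 0.140) and for library 1 (0.0508) or 2 (0.0669) of 0 h. Bad, a BH3-only protein kept inactive by survival signalling, had 505 and 496 normalised reads at 0 h, then 419 and 422 at 24 h, then 382 and 345 at 48 h and lastly 529 and 472 at 96 h. It was called lower at 48 h, by a log2 change of -0.46 (SE 0.11, adjusted p = 0.00115), against -0.25 at 24 h (adjusted p = 0.0703) and -0.00 at 96 h (adjusted p = 0.991). Bad overlaps Gpr137 on the other strand by 620 bases, so reads of this stretch cannot be told apart if strand was not used in counting.

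Among the anti-apoptotic genes Bcl2l1 fell, Mcl1 changed little and Bcl2 was barely read. Bcl2l1 had 4843 and 4974 normalised reads at 0 h, then 3986 and 3973 at 24 h, then 3698 and 3489.8 at 48 h and lastly 4327 and 4079 at 96 h. All later libraries were lower than both at 0 h, and those at 48 h were lowest. Its log2 change was -0.30 (SE 0.05, adjusted p = 3.29e-05) at 24 h, -0.45 (SE 0.05, adjusted p = 5.77e-08; 1.37-fold lower) at 48 h and -0.22 (SE 0.05, adjusted p = 0.000517) at 96 h. Mcl1, a short-lived protein that restrains Bak1 and Bim, had 34575 and 35247 normalised reads at 0 h, then 36888 and 36838 at 24 h, then 32434 and 32206 at 48 h and lastly 38260 and 40044 at 96 h. It was thus lower at 48 h and higher at 96 h, by small amounts: -0.11 (SE 0.04, adjusted p = 0.0151) and 0.17 (SE 0.04, adjusted p = 0.000643). Leaving out library 2 of 0 h (adjusted p = 0.0937), or library 1 (0.0585) or 2 (0.0834) of 48 h, ended the 48 h call of Mcl1. Bcl2 had 55.1 and 76.6 normalised reads at 0 h, then 63.8 and 32.0 at 24 h, then 42.1 and 54.8 at 48 h and lastly 61.2 and 52.4 at 96 h, with no change called. The 95% interval of its log2 change at 96 h, -0.89 to 0.50, leaves room for changes in either direction. Bcl2 shares 2087 bases with Gm37053 and 136 with Mir3473f on the same strand, and reads of these stretches could belong to either gene. It also overlaps D630008O14Rik on the other strand by 33103 bases, whose reads cannot be told apart if strand was not used in counting.

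Of the effectors, Bak1 was lower for a time and Bax changed little. Bak1 had 5442 and 6128 normalised reads at 0 h, then 5003 and 5152 at 24 h, then 4624 and 4563 at 48 h and lastly 5906 and 5723 at 96 h. It was lower at 24 and 48 h, with a log2 change of -0.33 (SE 0.05, adjusted p = 8.24e-06) at 48 h, and overlapped with 0 h at 96 h (0.01, adjusted p = 0.881). Its 24 h change of -0.19 (adjusted p = 0.00521) was no longer called without 0 h library 2 (adjusted p = 0.179). Bak1 lies wholly within Ggnbp1 on the other strand, so its reads and those of Ggnbp1 cannot be told apart if strand was not used in counting. Bax had 4989 and 5078 normalised reads at 0 h, then 5332 and 5371 at 24 h, then 5152 and 4671 at 48 h and lastly 5870.3 and 5297 at 96 h. Bax was called at 96 h alone, at 0.15 (SE 0.05, adjusted p = 0.0211), and not without 96 h library 1 (adjusted p = 0.286) or 0 h library 1 (0.0946).

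**Figure D1:**
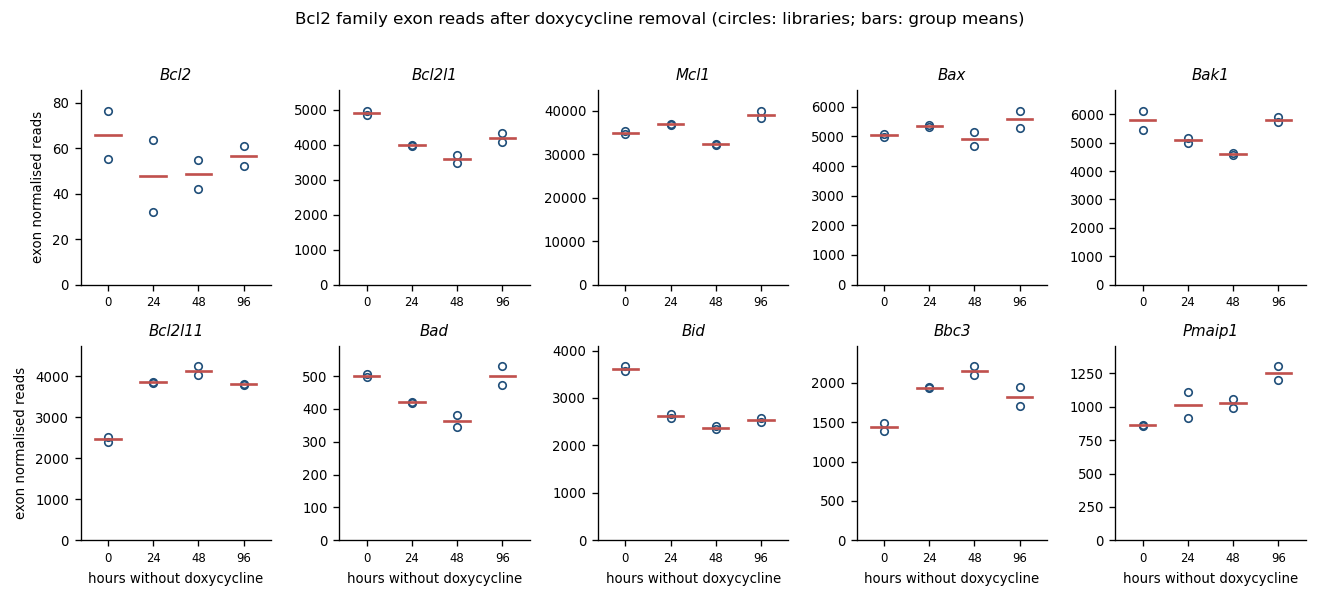
Normalised exon reads of the 10 genes in each library after 0, 24, 48 and 96 h without doxycycline; circles are libraries (n = 2 per time) and bars are group means. Bcl2l11 and Bbc3 lie higher, and Bid and Bcl2l1 lower, in every library from 24 h on than in either 0 h library.

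Between successive times, 4 of the 10 genes were called at 48 h against 24 h, all of them lower (39.0% of all tested genes were called, 18.8% lower). They were Mcl1 (-0.19, adjusted p = 0.000389), Bcl2l1 (-0.15, adjusted p = 0.0249), Bak1 (-0.14, adjusted p = 0.0325) and Bid (-0.14, adjusted p = 0.0413). At 96 h against 48 h 7 were called, 6 of them higher (36.4% of all tested genes, 20.1% higher). Bad (0.46, adjusted p = 0.00276), Bak1 (0.34, adjusted p = 2.13e-05) and Bcl2l1 (0.23, adjusted p = 0.00129), which were lower at 48 h than at 0 h, were among the higher ones, with Mcl1 (0.28), Pmaip1 (0.29) and Bax (0.18). Bbc3 was the gene called lower (-0.24, adjusted p = 0.00804). These comparisons share libraries with each other and with those against 0 h. At 48 h against 24 h, the calls of Bak1 and Bid ended with any of the 4 libraries left out (adjusted p 0.0635 to 0.165 and 0.0760 to 0.214), and that of Bcl2l1 with any but library 1 of 48 h (0.0810 to 0.248). At 96 h against 48 h, leaving out library 2 of 48 h ended the calls of Bad (adjusted p = 0.0521), Bax (0.226), Bbc3 (0.103) and Pmaip1 (0.134), library 1 of 96 h that of Bax (0.166), and library 2 of 96 h those of Bbc3 (0.139) and Pmaip1 (0.0938).

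The rescue asks the reverse question, which genes change when Ago2 is induced again after 96 h without doxycycline. Bcl2l11 fell and Bid rose at both doses, and by more at the higher one. At 2.5 µg/mL against no doxycycline, Bcl2l1, Bak1, Bad and Mcl1 also rose and Pmaip1 also fell. At 0.1 µg/mL 2 of the 10 genes were called (1 higher, 1 lower), where 44.1% of all tested genes were called (22.0% higher, 22.1% lower). At 2.5 µg/mL 7 were called (5 higher, 2 lower), where the share over all genes was 63.8% (31.8% higher, 32.0% lower). The median absolute log2 change of the 10 genes was 0.05 at the low dose, beside 0.24 over all tested genes, and 0.32 at the high dose, beside 0.39.

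Bcl2l11 had 2768 and 2788 normalised reads without doxycycline, 2322 and 2287 with 0.1 µg/mL and 1757 and 1731 with 2.5 µg/mL. The 3 groups did not overlap and followed the dose. The log2 change was -0.27 (SE 0.06, adjusted p = 0.000646) at 0.1 µg/mL and -0.67 (SE 0.06, adjusted p = 2.13e-10; 1.59-fold lower) at 2.5 µg/mL against no doxycycline, and 2.5 against 0.1 µg/mL, where 41.0% of all tested genes were called, gave -0.40 (adjusted p = 5.66e-06). Bid ran the other way, with 1831 and 1841 normalised reads without doxycycline, 2248 and 2139.7 with 0.1 µg/mL and 2844 and 2735 with 2.5 µg/mL. Its log2 change was 0.26 (SE 0.06, adjusted p = 0.00126) at 0.1 µg/mL and 0.60 (SE 0.06, adjusted p = 2.35e-09; 1.52-fold) at 2.5 µg/mL, and 0.35 (adjusted p = 5.26e-05) between the doses. Again no libraries of different doses overlapped. These calls of Bcl2l11 and Bid at both doses held with any 1 library left out.

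The remaining calls were made at the high dose. Bcl2l1 had 2951 and 2959.7 normalised reads without doxycycline, 3119 and 2903 with 0.1 µg/mL and 3988 and 3855 with 2.5 µg/mL, where it was 1.33-fold higher (log2 change 0.41, SE 0.06, adjusted p = 4.53e-07). At the low dose its libraries overlapped those without doxycycline. Bak1 had 3622 and 3507 without doxycycline, 3703 and 3577 with 0.1 µg/mL and 4356 and 4293 with 2.5 µg/mL (log2 change 0.28, SE 0.05, adjusted p = 4.56e-05). Pmaip1 had 923 and 961 without doxycycline, 891 and 953 with 0.1 µg/mL and 683 and 795 with 2.5 µg/mL (-0.35, SE 0.09, adjusted p = 0.00175). For both genes the high dose stood apart from the other 2 groups. Bad had 303 and 342 without doxycycline, 353 and 309.7 with 0.1 µg/mL and 409 and 414 with 2.5 µg/mL (0.35, SE 0.14, adjusted p = 0.0258). The Bad call was lost without the none library 1 (adjusted p = 0.186), high-dose library 1 (0.0682) or high-dose library 2 (0.0843). Mcl1 had 27804 and 28160.4 without doxycycline, 27784 and 27589.8 with 0.1 µg/mL and 29647 and 31696 with 2.5 µg/mL (0.13, SE 0.04, adjusted p = 0.00857), a call lost without the none library 1 (adjusted p = 0.0858) or high-dose library 2 (0.0880).

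Bbc3, Bax and Bcl2 were not called at either dose. Bbc3 had 1124 and 1110.2 normalised reads without doxycycline, 1363 and 1134 with 0.1 µg/mL and 1340.1 and 1185 with 2.5 µg/mL. Its high-dose log2 difference was 0.17 (95% interval -0.01 to 0.35, adjusted p = 0.085), positive as its change on removal had been; it was called without high-dose library 2 (adjusted p = 0.0261). Bax differed by -0.07 (95% interval -0.19 to 0.05) and Bcl2 by -0.13 (-0.93 to 0.67) at the high dose.

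Set against the time course, with which the rescue shares no library, 7 of the 10 genes were called in both 48 h against 0 h and 2.5 µg/mL against none, and all 7 had opposite signs. They were Bcl2l11, Bid, Bcl2l1, Bak1, Bad, Mcl1 and Pmaip1. Of all 13149 genes tested in both tables, 47.2% were called in both comparisons, and 89.6% of these had opposite signs. With 96 h in place of 48 h, 5 were called in both, of which Bcl2l11, Bid, Bcl2l1 and Pmaip1 had opposite signs and Mcl1 the same sign, beside 50.8% of all genes called in both and 96.2% of these with opposite signs. At the low dose 2 of the 10 genes, Bcl2l11 and Bid, were called in both experiments, with opposite signs at 24, 48 and 96 h alike. Of all 13149 genes, 27.7, 35.8 and 39.8% were called in both at these times. Opposite signs were held by 83.4, 94.0 and 98.9% of the genes called in both.

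**Figure D2:**
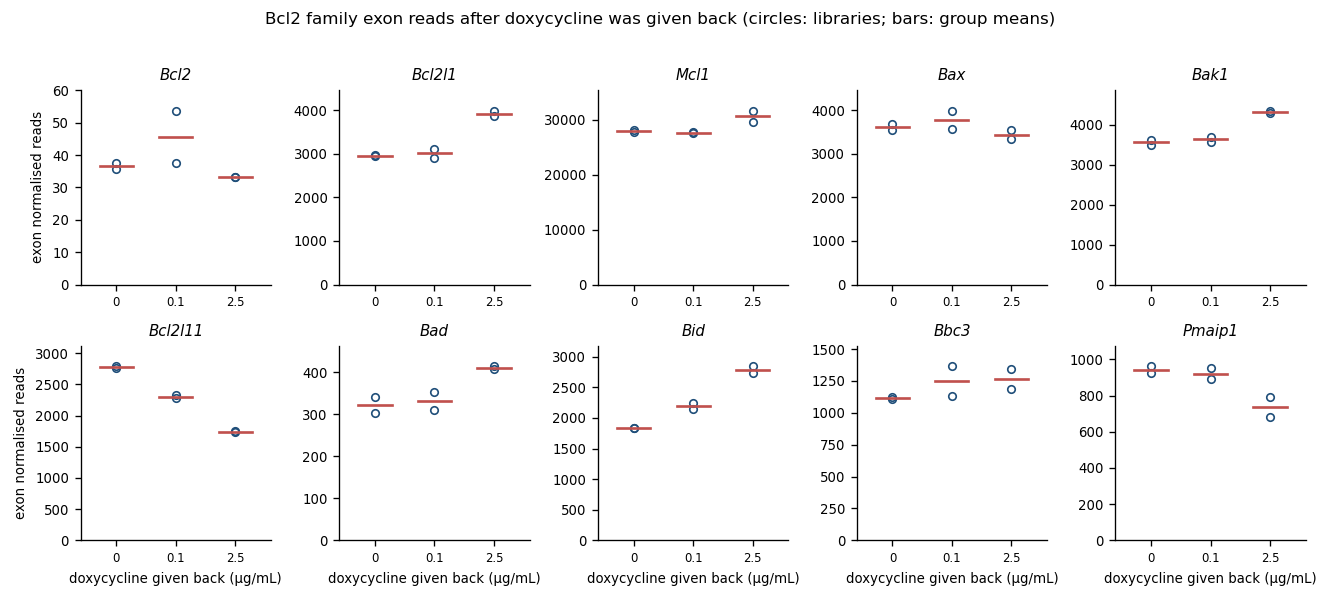
Normalised exon reads of the 10 genes in each rescue library without doxycycline and at 0.1 and 2.5 µg/mL; circles are libraries (n = 2 per dose) and bars are group means. Bcl2l11 steps down and Bid steps up with dose, while Bcl2l1 and Bak1 stand apart at 2.5 µg/mL.

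Intron reads come from unspliced RNA and were compared with exon reads to see whether both moved. Bid had 1241 and 1195 normalised intron reads at 0 h, then 1295 and 1302 at 24 h, then 1418 and 1399 at 48 h and lastly 1386 and 1416 at 96 h, so its introns were higher while its exons were lower. The intron log2 change was 0.21 (SE 0.07, adjusted p = 0.0149) at 48 h, where 43.4% of all genes tested in introns were called; leaving out library 2 of 0 h (adjusted p = 0.0981), or library 1 (0.0969) or 2 (0.0649) of 48 h, ended that call. The exon change minus the intron change of Bid was -0.54 (SE 0.09, adjusted p = 0.0361) at 24 h, -0.81 (SE 0.09, adjusted p = 0.0134) at 48 h and -0.72 (SE 0.09, adjusted p = 0.015) at 96 h. In this difference 4.12, 9.33 and 9.08% of all tested genes were called. In the rescue Bid introns had 861 and 855 normalised reads without doxycycline, 844 and 855 with 0.1 µg/mL and 708 and 695 with 2.5 µg/mL, a fall at the high dose (-0.29, SE 0.09, adjusted p = 0.00958) where its exons rose. Without library 1 or 2 of the group lacking doxycycline that intron change was not called (adjusted p = 0.0668 and 0.0573). The difference there was 0.93 (SE 0.11, adjusted p = 0.0243), where 11.3% of all tested genes were called.

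Bcl2l11 introns moved little. They had 495 and 475 normalised reads at 0 h, then 547 and 579.9 at 24 h, then 609.7 and 538 at 48 h and lastly 552 and 578 at 96 h, all above the 0 h libraries. Only the 48 h change of 0.24 (SE 0.10, adjusted p = 0.0497) was called in introns, and not without library 1 (adjusted p = 0.0901) or 2 (0.186) of 0 h or library 1 of 48 h (0.400). The exon minus intron difference of Bcl2l11 was 0.44 at 24 h (adjusted p = 0.0717), 0.51 at 48 h (SE 0.11, adjusted p = 0.0407) and 0.40 at 96 h (adjusted p = 0.0717). In the rescue its introns had 306 and 378 without doxycycline, 318 and 366 with 0.1 µg/mL and 351 and 342 with 2.5 µg/mL, overlapping at all doses (0.02 at the high dose, adjusted p = 0.896). The difference at the high dose was -0.66 (SE 0.16, adjusted p = 0.0581). With a prior trended on the intron level, an alternative chosen after seeing the data, adjusted p was 0.0105 at 24 h, 0.0156 at 96 h and 0.00303 at the high dose.

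Mcl1 and Bax introns rose in the rescue. Mcl1 introns had 667 and 749.8 normalised reads without doxycycline, 811 and 829 with 0.1 µg/mL and 950.5 and 1111 with 2.5 µg/mL (high against none 0.54, SE 0.10, adjusted p = 5.29e-05). Bax introns had 1105 and 944 without doxycycline, 1002 and 1080.4 with 0.1 µg/mL and 1733 and 1875 with 2.5 µg/mL (0.82, SE 0.09, adjusted p = 2.14e-08). The high dose stood apart for both genes, while Bax exons overlapped, giving an exon minus intron difference of -0.85 for Bax (SE 0.16, adjusted p = 0.0382). Bax shares 915 bases with Gm45808 on the same strand, and reads of this stretch could belong to either. At 2.5 µg/mL against none, 3 of the 10 genes were called in introns (46.4% of all genes tested in introns). In the time course 2 were called in introns at 24 h against 0 h (37.2%), Bcl2 and Mcl1, 2 at 48 h, Bid and Bcl2l11, and 4 at 96 h (44.6%), Bad, Bax, Bid and Mcl1. Apart from Mcl1 at 24 h (0.37, SE 0.07, adjusted p = 0.000145), each of these time course calls ended with at least 2 of the 4 libraries left out in turn. Every call on the exon minus intron difference was lost when any 1 library was left out, and exon and intron libraries could be matched only by their correlated deviations.

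**Figure D3:**
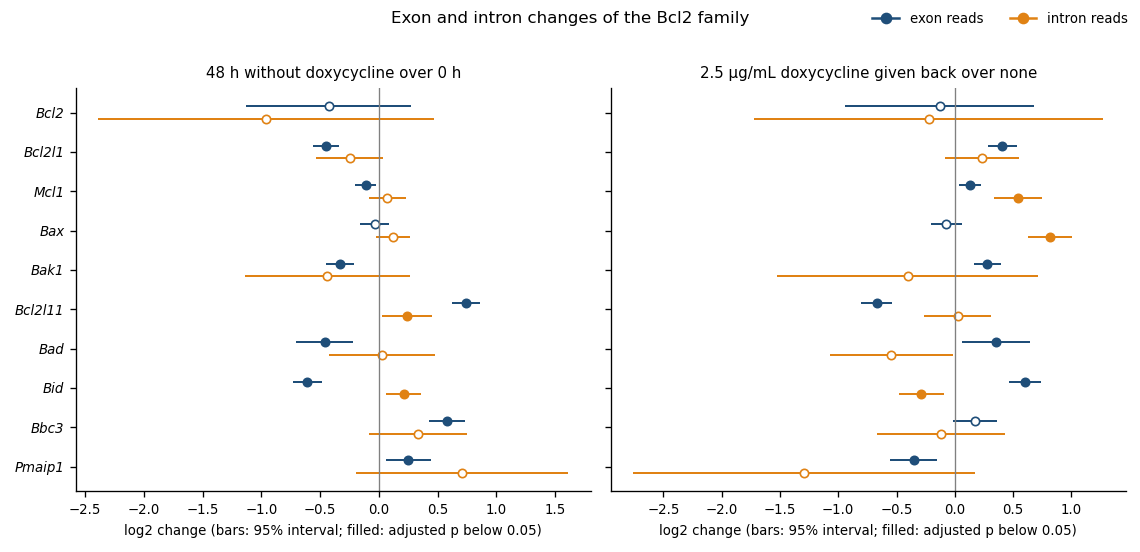
Log2 changes of exon and intron reads of the 10 genes at 48 h against 0 h without doxycycline and at 2.5 µg/mL against none, with 95% intervals; filled circles mark an adjusted p below 0.05. Bid exons and introns lie on opposite sides of 0 in both comparisons, and in the rescue Bax introns lie above 0 (0.82) while its exons do not (-0.07).

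Among genotypes the question is whether cells held for long without Argonaute differ from those with Ago2. Of the 10 genes 1 was called: Bid was lower in the Argonaute-null clones than in B9, which keeps its own Ago2. It had 1131 and 823 normalised exon reads in the clones and 2089.6 and 2017 in B9, so the groups did not overlap (log2 change -1.09, SE 0.26, adjusted p = 0.0237; 2.13-fold lower). In clones against B9 13.0% of all tested genes were called, 5.41% lower. Bid had 1346, 1551 and 1091 in E7 and 1454 and 1635 in AB2.2, and was not called for the clones against E7 (-0.45, adjusted p = 0.317) or AB2.2 (-0.68, adjusted p = 0.0949). The call against B9 was lost without clone library 2 (adjusted p = 0.0876), B9 library 1 (0.127) or B9 library 2 (0.0964).

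Bcl2l11 was not called in any comparison of genotypes. It had 1853 and 2124 normalised reads in the clones, 1583, 2177 and 2582 in E7, 1522 and 1167 in B9, and 2075 and 1922 in AB2.2. The clones overlapped with E7 and AB2.2, and the 95% interval of the log2 difference between clones and E7, -0.62 to 0.49, lies below the 0.74 seen at 48 h and the 0.62 seen at 96 h in the time course. It does not exclude smaller changes in either direction. Against B9 the clones were higher in both libraries, by 0.57 (SE 0.28, adjusted p = 0.181). B9 was the lowest group for Bcl2l11, at 188 ± 35.1 per kb, and the groups with Ago2 did not share its level. The clones had 279 ± 26.8 per kb, E7 296 ± 70.5 and AB2.2 280 ± 15.2.

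Pmaip1 and Mcl1 differed widely between libraries of 1 group. Pmaip1 had 512 and 239 normalised reads in the clones, 339, 754 and 1629 in E7, 738 and 1429.8 in B9, and 1034 and 1978 in AB2.2. Its clone libraries lay below both AB2.2 libraries, by -2.03 on the log2 scale (SE 0.65), which missed the threshold (adjusted p = 0.0507). Clone library 2 alone differed from AB2.2 by -2.58. Mcl1 had 19174 and 7611 in the clones, 18420.0, 21623 and 19969.6 in E7, 22375 and 24793 in B9, and 23177 and 22993 in AB2.2. Clone library 2 thus stood apart from all others. With both clones, limma did not call Mcl1 against E7 (adjusted p = 0.238), B9 (0.0914) or AB2.2 (0.0867). Clone library 2 alone differed by -1.39 from E7, -1.63 from B9 and -1.60 from AB2.2 on the log2 scale, which describes 1 library. In the same clone library Bax was highest, with 2878 and 5282 in the clones, 3617, 3344 and 2747 in E7, 2901 and 2313 in B9, and 3597 and 2769 in AB2.2. Which of C62 and C86 gave that library is not known. Bcl2 had 34.2 and 29.3 in the clones, 14.2, 6.90 and 43.4 in E7, 26.8 and 13.5 in B9, and 86 and 142 in AB2.2. All mutant libraries lay below both AB2.2 libraries for Bcl2, without a call (E7 against AB2.2 -2.68, SE 0.75, adjusted p = 0.0695).

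None of the other genes was called between genotypes. Bcl2l1 had 2065 to 2951 normalised reads over the 9 libraries, Bak1 1847 to 3295, Bad 199 to 361 and Bbc3 902 to 2249.6. Group means of Bad and Bcl2l1 are given as a description only, since no difference was called. Bad had 219 ± 25.9 per kb in B9, against 140 ± 12.7 in the clones, 174 ± 29.0 in E7 and 157 ± 13.7 in AB2.2. Bcl2l1 had 889 ± 49.5 per kb in E7, against 750 ± 95.9 in the clones, 821 ± 146 in B9 and 699 ± 75.3 in AB2.2. By limma 0 of the 10 genes were called for the clones against E7 (1.51% of all tested genes), the clones against AB2.2 (18.6%), E7 against AB2.2 (4.56%), B9 against AB2.2 (0.0685%) or E7 against B9 (0.0685%). At an unadjusted p below 0.05 there were 1, 3, 1, 1 and 2 genes in these comparisons, which share libraries. In introns, where Bcl2 was too low to test, 0 of 9 were called in any of the 6 comparisons, with 1 at an unadjusted p below 0.05 for the clones against AB2.2 and 0 in the others. Of all genes tested in introns, 0.131, 1.26 and 4.01% were called for the clones against E7, B9 and AB2.2, 0.558% for E7 against AB2.2, 0.0% for B9 against AB2.2 and 0.00872% for E7 against B9. The SE of a log2 change was 0.21 to 0.75 for the 10 genes in clones against E7, beside 0.04 to 0.34 at 48 h against 0 h.

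**Figure D4:**
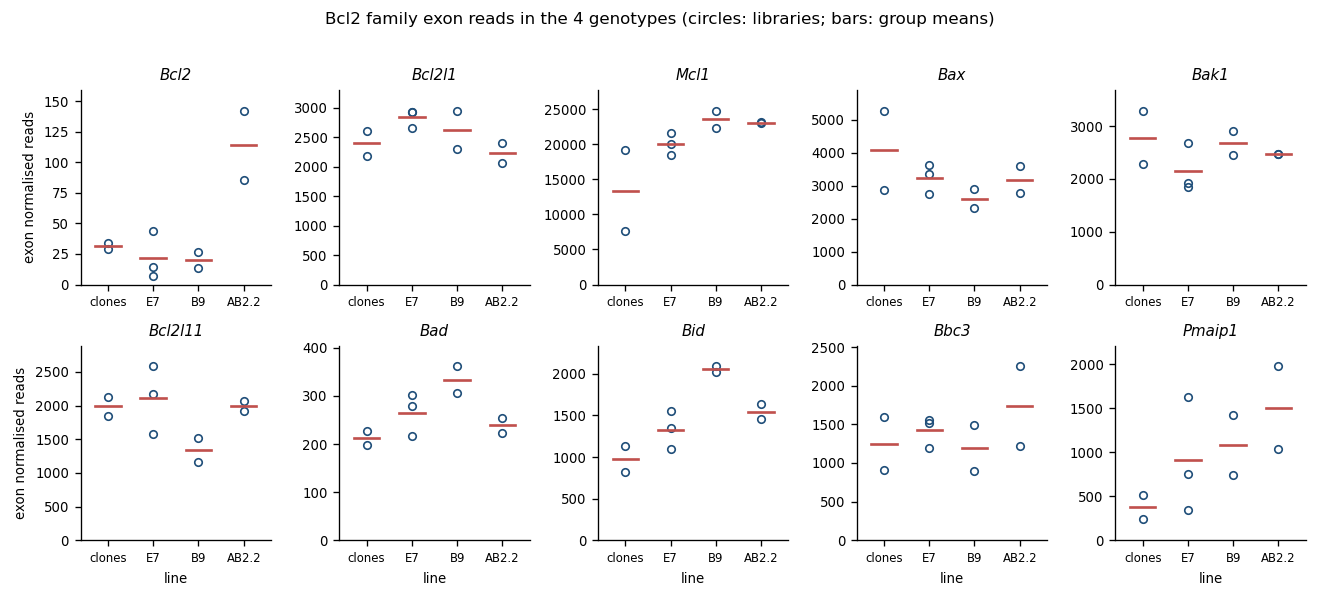
Normalised exon reads of the 10 genes in each library (circles) of the Argonaute-null clones (n = 2), E7 (n = 3), B9 (n = 2) and AB2.2 (n = 2), with group means as bars. Bid is lower in both clone libraries than in B9, and the clone libraries lie far apart for Mcl1 and Bax.

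Genes that act with or around the 10 were taken from 4 lists and counted in full. Among 12 other Bcl2 family genes tested in the time course, 7 were higher and 4 lower at 48 h against 0 h, where 32.1% of all tested genes were called higher and 31.2% lower, with a median log2 change of 0.44. The BH3-only gene Hrk was lower at 48 h, with 274 ± 16.6 normalised reads against 474 ± 9.57 at 0 h (-0.79, adjusted p = 0.000249), and lower still at 96 h, with 115 ± 30.2 (-2.06, adjusted p = 1.53e-10; SD, n = 2). In the rescue Hrk was among 5 of 11 family genes called higher at 2.5 µg/mL against none, with none lower, where 31.8% of all tested genes were called higher and 32.0% lower. Hrk had 416 ± 20.0 at the high dose against 42.2 ± 1.24 without doxycycline (3.27, SE 0.20, adjusted p = 1.39e-13). Bok, an effector-like relative of Bax and Bak1, also ran opposite ways, at -0.89 at 48 h and 0.94 at the high dose. Bnip3, a hypoxia-induced mitophagy gene, was higher in both, at 0.74 and 0.93. The BH3-only gene Bmf was higher both at 24 h (0.85, adjusted p = 4.03e-08) and at the high dose (1.03, adjusted p = 5.45e-10). In the time course it had 1331 ± 53.9 normalised reads at 0 h, 2411 ± 331 at 24 h, 1910.1 ± 90.1 at 48 h and 1039.6 ± 145 at 96 h (SD, n = 2) and was highest at 24 h.

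Among genes of the death receptor pathway, 7 of 9 were higher and none lower at 48 h against 0 h (median log2 change 0.64), where 32.1% of all tested genes were called higher, and at 2.5 µg/mL against none all 8 tested were lower (median -0.55), where 32.0% were called lower. Between 48 and 96 h the list went both ways, with 5 higher (20.1% of all tested genes) and 1 lower, Cflar, an inhibitor of caspase-8 (-0.50, adjusted p = 0.000185). Tnfrsf1a, the main TNF receptor, had 711 ± 67.9 normalised reads at 48 h against 294 ± 25.0 at 0 h (1.27, adjusted p = 3.42e-10), and 359 ± 16.9 at the high dose against 549 ± 39.4 without doxycycline (-0.61, adjusted p = 0.000151). Tnfrsf10b, the mouse TRAIL receptor, changed by 0.77 at 48 h and -0.70 at the high dose. Ripk3, the necroptosis kinase, was higher by 0.76 at 48 h, and Ripk1, its partner kinase, was lower at the high dose (log2 change -0.94).

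Apoptosome, caspase and inhibitor genes went both ways, 9 higher and 6 lower of 20 at 48 h, and 7 higher and 6 lower of 20 at the high dose. Of all tested genes 32.1% were called higher and 31.2% lower at 48 h, and 31.8% higher and 32.0% lower at the high dose. Casp2, an initiator caspase, had 4082 ± 71.4 normalised reads at 48 h against 2379.7 ± 122 at 0 h (0.78, adjusted p = 1.33e-11), and 1561 ± 123 at the high dose against 3144 ± 124 without doxycycline (-1.01, adjusted p = 5.61e-13). Birc3, an inhibitor of apoptosis that acts in TNF signalling, changed by 1.38 at 48 h and -1.66 at the high dose. Apaf1, the scaffold of the apoptosome, was lower at the high dose (-0.69, adjusted p = 1.5e-10). Diablo, which counters the inhibitors of apoptosis, was lower at 48 h (-0.65, adjusted p = 3.18e-08). Among regulators that act upstream of the 10 genes, 8 of 16 were higher and 3 lower at 48 h, and 4 were higher and 7 lower at the high dose, beside the same shares of all tested genes. The p53 relative Trp73, which can induce Bbc3, changed by 1.09 at 48 h and -0.66 at the high dose. Atf4, a stress factor upstream of Ddit3, changed by -0.73 at 48 h and 0.78 at the high dose, and Ddit3 was higher at the high dose (1.15, adjusted p = 2.34e-05). Usp9x, a deubiquitinase that stabilises Mcl1 protein, was lower at the high dose (-0.80, adjusted p = 1.35e-14).

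Among genotypes, limma called 0 genes of the 4 lists for the clones against E7, where 1.51% of all tested genes were called. Against B9 (13.0% of all tested genes) 2 of 11 other Bcl2 family genes were lower, 2 of 20 apoptosome and caspase genes and 2 of 8 death receptor genes were higher, and 1 of 15 upstream regulators was higher and 2 were lower. Against AB2.2 (18.6%) the counts were 2 higher and 3 lower, 2 higher, 3 higher and 1 lower, and 1 higher and 1 lower in the same lists. Hrk had 11.2 ± 4.57 normalised reads in the clones, against 134 ± 68.1 in B9 (-3.42, adjusted p = 0.012) and 133 ± 69.0 in AB2.2 (-3.40, adjusted p = 0.00813). The Hrk call against B9 ended without B9 library 2 (adjusted p = 0.0823) or clone library 2 (0.0648), and that against AB2.2 without AB2.2 library 2 (0.0850). Tnfrsf21, a death receptor, had 2471 ± 95.04 in the clones, against 889.7 ± 21.9 in B9 (1.47, adjusted p = 0.00473) and 1030.3 ± 165 in AB2.2 (1.27, adjusted p = 0.00558; 0.0536 without AB2.2 library 1). Casp2 had 2534 ± 86.6 in the clones, against 1098 ± 70.7 in B9 (1.21, adjusted p = 0.0175) and 1032 ± 159 in AB2.2 (1.30, adjusted p = 0.0089). The Casp2 call against B9 ended without B9 library 1 (0.0811) or 2 (0.0925) and with only the groups compared in the fit (0.0592), and that against AB2.2 without AB2.2 library 2 (0.0864).

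Genes whose exon levels moved most like Bcl2l11 over the 11 groups, on the log2 scale and centred within each experiment, were Prom1 (Pearson r = 0.977), Prkaa2 (0.975) and Pls3 (0.968). For Bid they were Ube2q1 (0.991), D10Wsu102e (0.990) and Nek6 (0.982). These are the highest of 12991 genes, the groups of an experiment were normalised together, and the values are a description.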

How the data were processed

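The authors deposited 6 tables, exons and introns of the 3 experiments, 1 column per group. Each value is a signal that the authors averaged over a group's libraries after normalisation, per the file headers. TopHat2 2.0.12, DESeq and the build mm10 are named in the submitters' processing notes. The read counter, the annotation and whether counting used strand are not given in these sources. Libraries were strand-specific, per the labels' protocols.

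Each mean is a sum of whole reads times 1 step per library, so library values were worked out from it, as tested on simulated data. Whole reads were settled for 404962 of 405064 values (99.975%), among them every value of the 10 genes. The others were E7 values, including 101 abundant genes that hold 17.7% of its summed exon mean and were left out among genotypes. The columns carry no replicate number, so which sample a library is, and which clone, is unknown.

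Log2 of normalised reads plus 1 went into limma 3.58.1 (R 4.3.3, trended prior), with the groups of a table fitted together. A mean of at least 10 was required, with Benjamini-Hochberg adjustment within a comparison. Exon minus intron values were centred per library, and the exon library that belongs to an intron library was taken from their correlated deviations. No label says that libraries came from separate cultures, so p-values measure the spread between libraries, which may be technical. Tables of different experiments were normalised apart and not compared in level.

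All 10 genes are named. Of each of the 4 pathway lists, named genes are among the 5 with the largest change among those called in a comparison. The genes most like a member were sought for the member with the largest rise and the one with the largest fall at 96 h. The 10 genes and the lists were chosen with earlier results of these data known. Seed matches were searched in the longest annotated GENCODE M21 untranslated region of each gene, on GRCm38. Alternatives tried were another pseudocount, filter, prior and scaling, fitting only the groups compared, and leaving out each library.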

Additional observations from a re-analysis of the deposited data

How the results depend on the processing

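Of 3706 values of the 10 genes under alternatives, 3536 kept their side of the threshold, 124 lost a call, 46 gained one and none reversed a called direction. Counts given here are of the 10 genes called. The shares of all tested genes called under these alternatives are not given, so the counts do not show whether the 10 genes stand out. In exons, clones against B9 gave 0 with a prior without a trend or with only the groups compared, and clones against AB2.2 gave 1 with a pseudocount of 10 or only the groups compared, as did E7 against AB2.2 with a pseudocount of 10. With a prior without a trend, exon calls were 1 at 48 h against 24 h and 4 at 96 h against 48 h, and intron calls were 0 at 48 h against 0 h, 1 at 96 h against 0 h, 0 at 48 h against 24 h and 1 at 2.5 against 0.1 µg/mL. With only the groups compared, intron calls were 1 at 24 h against 0 h and 1 at 96 h against 48 h, and with no filter 1 at 48 h against 0 h. For exon minus intron values, a prior trended on the intron level, added after seeing the data, gave 3, 2, 5 and 2 calls at 24 h, at 96 h, at 2.5 µg/mL against none and at 2.5 against 0.1 µg/mL. A minimum of 50 in both tables gave 2, 2, 4 and 2 in the same comparisons. A pseudocount of 10 gave 2 at 2.5 against 0.1 µg/mL, and pairing the 0 h libraries the other way gave 1 at 48 h.

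With 1 library left out, exon calls ranged over 0 to 1 for clones against E7, 0 to 3 against B9, 0 to 3 against AB2.2, 0 to 1 for E7 against AB2.2, 4 to 6, 6 to 7 and 6 to 7 at 24, 48 and 96 h, 1 to 3 at 48 h against 24 h, 3 to 7 at 96 h against 48 h, 2 to 3 at 0.1 µg/mL, 5 to 7 at 2.5 µg/mL and 5 to 6 between the doses. Intron calls ranged over 1 to 2, 0 to 1 and 1 to 2 at 24, 48 and 96 h, 0 to 1 in both later steps, 2 to 5 at 2.5 µg/mL and 1 to 4 between the doses. Exon minus intron calls were 0 in each case. A group left with 1 library was taken to vary like the others. No paired analysis was possible because the columns carry no replicate numbers. Leaving out a library also left fewer libraries in the fit, and the cause of these differences was not tested. Depth limits Bcl2, whose introns had under 25 normalised reads in every library.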
